A study of Lolium arundinaceum with 6 samples.

Results

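Leaves of tall fescue that had been at 38 °C for 12 h were compared directly with leaves that had been at 38 °C for 2 h, so that what changed with the length of the heat could be read without passing through the control. The comparison holds 4 of the 6 libraries of the series, 2 biological replicates after 2 h and 2 after 12 h, all from wild-type seedlings aged 10 days. The remaining 2 libraries are unheated controls, labelled 0 h. They are given as reference levels on the same scale, and entered only an alternative fit of all 6 libraries. Every leaf in the comparison had been heated, and no source used here gives the hour of day at which leaves were taken, so hours of heat and time of day cannot be told apart. The table counts reads for 179680 unigenes, which are transcript clusters assembled from the reads themselves, and 25983 of them (14.5%) held enough counts in the heat libraries for a test. A unigene is said to rise or fall, or to be called, where its 12 h level differed from its 2 h level by at least 2-fold with an adjusted p of at most 0.05 in edgeR's quasi-likelihood test. Levels are counts scaled to a common library size, written as CPM. A positive log2 fold change (log2 FC) means a higher level at 12 h, and SE is its standard error.

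Heat unfolds proteins, and plant cells answer within minutes through heat shock factors, transcription factors that switch on chaperones such as the small heat shock proteins and HSP70. During longer heat this early burst gives way to an acclimated state in which proteins are folded, degraded and replaced at another rate, photosynthesis is retuned and growth hormones are reset. Unigenes are named here by the best Arabidopsis or rice match that the study lists for them, and what each named gene does is known mostly from Arabidopsis. Tall fescue is a polyploid, several unigenes often share 1 match, and reads may be split between near-identical copies, so a unigene is not a whole gene.

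Library totals ran from 6349776 to 7891567 counts, which makes 3 counts in 1 heat library worth 0.363 to 0.504 CPM. The 2 h libraries stood apart from each other: log2 differences between replicates, taken over 9068 unigenes, had an SD of 0.50 at 2 h, 0.233 at 12 h and 0.260 in the controls. Of these unigenes 4.94% differed more than 2-fold between the 2 h replicates against 0.0993% between those of 12 h. Leaf identity was checked with marker genes. The 9 tested mesophyll unigenes, among them photosystem and Calvin cycle genes, summed to 18389 and 18518 CPM in control leaves, 11046 and 9917 CPM at 2 h and 6551 and 6386 CPM at 12 h (2 were called higher, 2 lower). Without PSAK and PSAO, the 2 that fell, the other 7 summed to 2685 and 3330 CPM at 2 h and 3373 and 3322 CPM at 12 h. Guard cell markers had 42.8 and 49.5 CPM in control leaves. They went from 30.2 and 29.1 CPM at 2 h to 83.1 and 80.1 CPM at 12 h (3 tested, 2 higher). Most of this sum was SDD1 (c156289_g1), with 27.7 and 24.2 CPM at 2 h and 72.9 and 69.9 CPM at 12 h. Epidermal markers went from 456 and 479.9 CPM at 2 h to 1179 and 1142 CPM at 12 h (5 tested, 2 higher). Xylem markers went from 110.1 and 126 CPM to 292 and 249.8 CPM (7 tested, 1 higher and 3 lower), markers of dividing cells from 41.1 and 37.4 CPM to 17.6 and 25.5 CPM (5 tested, 1 lower), and the 1 phloem marker had too few counts for a test. In whole leaves, fewer cells of a type and less RNA per cell cannot be told apart, and the part of these markers in the changes below was not tested.

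Between 2 and 12 h of heat 9396 unigenes (36.2% of those tested) changed, and of these 4191 (16.1%) rose and 5205 (20%) fell. The libraries of the 2 times did not overlap, with means at least 2-fold apart, for 9494 unigenes (36.5%). The median size of the change was 1.78 on the log2 scale for those that rose and 1.84 for those that fell. Among the unigenes that rose, 1745 differed at least 4-fold, 375 at least 32-fold, and 219 had no count in either 2 h library. Among those that fell, 2174 differed at least 4-fold, 198 at least 32-fold, and 163 had no count at 12 h. These folds are fitted values, and where a time holds no count their size depends on the small prior count the fit adds. Unigenes with 0 or a few counts at 1 time passed the filter only through the other time. They could therefore be called in 1 direction alone. Of the called unigenes with a mean of at least 10 CPM, 1598 rose and 1057 fell. As a description, the control mean lay below both heat times for 2286 of the unigenes that rose (54.6%), between the times for 1743, and above both for 162. Of those that fell it lay above both times for 2304 (44.3%), between them for 2344 and below both for 557 (10.7%). The number that fell was 3047 without 12 h replicate 1 and 3328 without 12 h replicate 2, and 6366 and 7010 were then called in all. The balance depends on the scaling: 44.6% of the calls were rises here, and 32.8% with library totals alone, where 3212 rose and 6583 fell and the median over all unigenes lay at -0.29 in place of -0.07. It also depends on the test and the libraries, and rises became the majority with DESeq2 (54.4% of the calls, 3612 higher and 3029 lower), with no filter beyond 1 count in total (53.0%), and without 12 h replicate 1 (52.1%), 12 h replicate 2 (52.5%) or 2 h replicate 1 (51.0%).

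**Figure D1:**
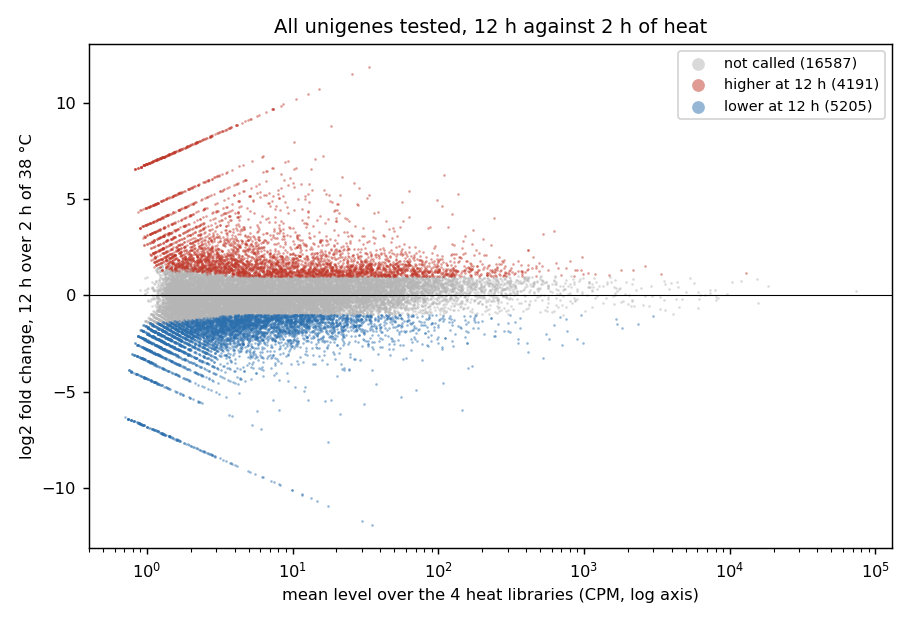
Each point is 1 of the 25983 unigenes tested, with its mean level over the 4 heat libraries (CPM, log axis) against its log2 fold change of 12 h over 2 h of heat. The 4191 unigenes called higher at 12 h are red, the 5205 called lower are blue, and the straight rows at the left edge are unigenes with 0 or a few counts at 1 of the times.

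To read these changes as biology, 39 lists of annotated unigenes were counted. The annotation came from the study's tables, which list unigenes it had called against the controls on these same libraries, so a list is not independent evidence of its direction. Of 1753 annotated unigenes tested, 897 (51.2%) were called, 398 (22.7%) higher and 499 (28.5%) lower at 12 h. These shares are the background for each list below, and the median log2 fold change of the 1753 was -0.10. List counts are over tested members, and members with too few counts for a test are left out of them. Only 1947 unigenes held an annotation used here. The study's full list of unigenes changed by heat is much longer, so the annotation used here covers only part of it. A list therefore holds the members of a family that fell in this part, and not the whole family. Whether this part samples each family evenly was not tested. The share that rose or fell in a list is not the share in its family. Whether members outside the lists changed in the same way was not tested.

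Most of the heat shock factors listed were higher after 12 h than after 2 h. Of 6 tested, 4 (against a background of 22.7% higher) rose from 2 to 12 h in edgeR, with a median log2 fold change of 1.79. No factor fell, in edgeR, with an unadjusted p of 0.05 at the same fold or in DESeq2. HSFA3 (c151159_g1), a class A factor that in Arabidopsis acts downstream of the drought and heat factor DREB2A, stood at 0.512 and 0.689 CPM in control leaves, 70.6 and 57.4 CPM at 2 h and 351 and 448 CPM at 12 h. Its 12 h libraries lay far above both 2 h libraries (log2 FC 2.64, SE 0.21, adjusted p = 4.96e-05). HSFB2B (c135926_g1), of class B, whose members lack the activating motif of class A and often repress, went from 8.24 and 7.51 CPM at 2 h to 36.4 and 31.9 CPM at 12 h (log2 FC 2.11, SE 0.23, adjusted p = 0.000222). HSFB2A (c139552_g1), of the same class, had 54.7 and 33.9 CPM at 2 h and 143 and 117 CPM at 12 h (log2 FC 1.55, SE 0.25, adjusted p = 0.00129). An HSFA1D unigene (c146225_g1), of the class that triggers the response in Arabidopsis, had 6.06 and 3.75 CPM at 2 h and 18.8 and 21.8 CPM at 12 h (log2 FC 2.04, SE 0.30, adjusted p = 0.000884). The more abundant HSFA1D unigene (c142961_g2) had 5.46 and 7.03 CPM in control leaves, 78.2 and 55.8 CPM at 2 h and 62.5 and 72.4 CPM at 12 h, so that the heat times overlapped (log2 FC 0.0090, SE 0.22, adjusted p = 0.976). HSFA6B (c152640_g1), a factor tied to ABA in Arabidopsis, had 324 and 219 CPM at 2 h and 562 and 461 CPM at 12 h and was not called (log2 FC 0.91, SE 0.22, adjusted p = 0.00826), but was called without 2 h replicate 1 (log2 FC 1.24) or without 12 h replicate 2 (1.11). Summed over the list, the factors stood at 23.7 and 24.1 CPM in control leaves, 542 and 377 CPM at 2 h and 1174 and 1151 CPM at 12 h, without overlap between the times.

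The study listed quantitative PCR primers for HSFA3, HSFB2B and HSFB2A, and they are printed here because they are the stretches by which these transcripts, the regulators that rose, can be recognised. Each is written from its 5′ end in lower case, with nothing in capitals.
HSFA3 forward: aggtccaagggaaagaatgtg
HSFA3 reverse: caagtttgctcaccatctgc
HSFB2B forward: cgacctactcccgaagtact
HSFB2B reverse: tcctgaatccgtatgtgttgag
HSFB2A forward: ttccgaaccagcacacg
HSFB2A reverse: gcgaagatgttgttgcagag
FTSH6 forward: aaacaagaggctggataccg
FTSH6 reverse: ccttaacggagatgcggtc
The last pair belongs to FTSH6 (c144626_g1), a chloroplast protease described with the photosystem genes.

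**Figure D2:**
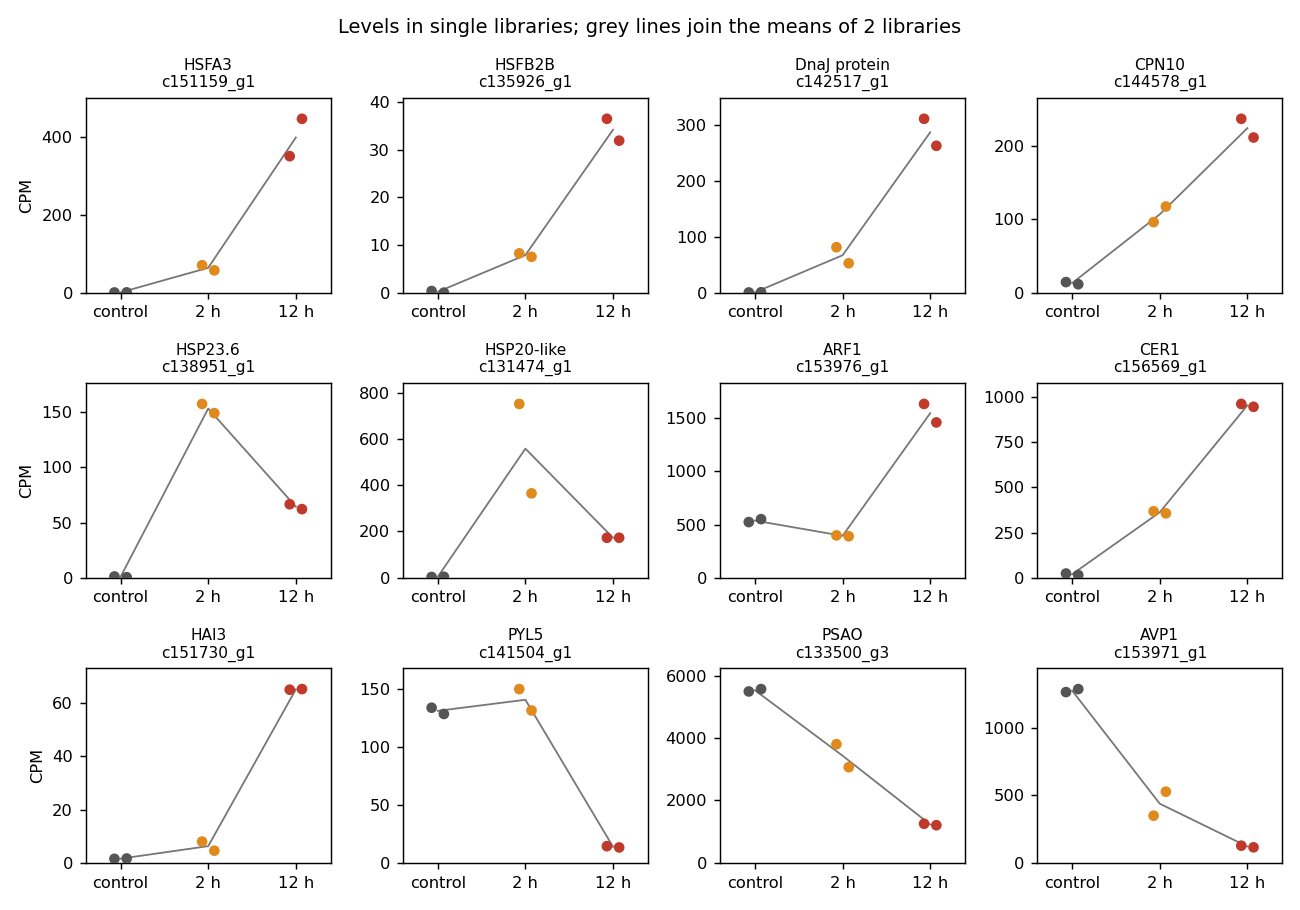
Points are the levels (CPM) of 12 unigenes in the single libraries of the control, 2 h and 12 h groups, and grey lines join the group means. Both 12 h libraries of HSFA3 (351 and 448 CPM) lie above both 2 h libraries, while those of HSP23.6 (66.7 and 62.2 CPM) lie below, and every axis starts at 0.

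The small heat shock proteins, which hold unfolded proteins until they can be refolded, were already abundant at 2 h and showed no common direction after it. Their summed level was 613 and 621 CPM in control leaves, 40621 and 31817 CPM at 2 h and 42904 and 41924 CPM at 12 h. Of 15 tested, 1 rose and 2 fell, with a median of -0.27. None of them rose without 2 h replicate 1 or without 12 h replicate 1, and 2 rose without 2 h replicate 2. HSP21 (c141018_g3), the chloroplast member, was the most abundant of them at 12 h, with 11709 and 10283 CPM at 2 h and 19554 and 20390 CPM at 12 h, under the fold limit (log2 FC 0.86, SE 0.15). The 1 that rose was a minor HSP18.2 unigene (c83237_g1), picked here after its values were seen, with 15.6 and 27.7 CPM at 2 h and 47.7 and 39.4 CPM at 12 h (log2 FC 1.01, SE 0.28). HSP23.6 (c138951_g1), matched to a mitochondrial small heat shock protein, had 158 and 149 CPM at 2 h and 66.7 and 62.2 CPM at 12 h (log2 FC -1.25, SE 0.18, adjusted p = 0.000751). Its primers are not shown since the forward and reverse entries are the same. An HSP20-like unigene (c131474_g1) had 751 and 365 CPM at 2 h and 173 and 173 CPM at 12 h and fell as well (log2 FC -1.69, SE 0.29, adjusted p = 0.00186), although its 2 h libraries lay far apart. HSP17.6II (c148595_g1), of the cytosolic class II, had 8351 and 6365 CPM at 2 h and 4939 and 4426 CPM at 12 h, a difference under the fold limit (log2 FC -0.65, SE 0.18). HSP18.2 (c129854_g1), of the cytosolic class I, likewise had 542 and 803 CPM at 2 h and 404 and 399.6 CPM at 12 h (log2 FC -0.74, SE 0.20). ATHSP22.0 (c152923_g1) had 1377 and 1702 CPM at 2 h and 2038 and 1937 CPM at 12 h (log2 FC 0.37, SE 0.17, adjusted p = 0.0991).

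Among the other chaperones and their cofactors 5 of 17 rose and 2 fell, with a median of 0.31. With library totals alone 3 rose, and none fell in DESeq2 or without 2 h replicate 2 or 12 h replicate 2. A DnaJ-domain protein (c142517_g1), of the partners that hand clients to HSP70, had 0.341 and 0.689 CPM in the controls. It went from 81.3 and 52.6 CPM at 2 h to 311 and 263 CPM at 12 h (log2 FC 2.10, SE 0.23, adjusted p = 0.000245). A GrpE family protein (c143791_g1), which makes HSP70 of organelles exchange its nucleotide, had 82.8 and 112 CPM at 2 h and 244 and 219.6 CPM at 12 h (log2 FC 1.25, SE 0.20, adjusted p = 0.00128). CPN10 (c144578_g1), the lid of the organelle chaperonin, had 95.9 and 117 CPM at 2 h and 236 and 211 CPM at 12 h (log2 FC 1.07, SE 0.19, adjusted p = 0.00187). It lost its call with library totals alone (0.85) and without 2 h replicate 1 (0.95). An FKBP-like isomerase (c136007_g1), which turns proline bonds during folding, had 32.2 and 29.6 CPM at 2 h and 86.3 and 68.7 CPM at 12 h (log2 FC 1.32, SE 0.20, adjusted p = 0.00109). In these 4 the 12 h libraries lay above the 2 h libraries, as in every unigene that rose. HSC70-1 (c154957_g1), matched to an HSP70 that Arabidopsis makes without heat, was far above its control level of 192 and 186 CPM at both times and was not called between them, with 8053 and 9382 CPM at 2 h and 7655 and 7323 CPM at 12 h.

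Of the genes that fold proteins in the endoplasmic reticulum, 3 of 10 unigenes rose in edgeR, near the background of 22.7% higher, with a median of 0.90. No unigene of this list fell, in edgeR, with an unadjusted p of 0.05 at the same fold or in DESeq2. With library totals alone 1 rose, and 5 rose without 2 h replicate 2. The factor bZIP60 (c146416_g1), which drives the unfolded protein response, had 47.7 and 45.6 CPM at 2 h and 114 and 117 CPM at 12 h (log2 FC 1.31, SE 0.18, adjusted p = 0.000659). RAMP4 (c128735_g1), a membrane protein at the ribosome docking site, had 70.3 and 68.0 CPM at 2 h and 149.8 and 146 CPM at 12 h (log2 FC 1.10, SE 0.17, adjusted p = 0.00128; 0.87 and not called with library totals alone). STT3B (c154975_g1), the catalytic subunit that attaches sugars to asparagine, had 7.99 and 12.7 CPM at 2 h and 25.5 and 21.2 CPM at 12 h (log2 FC 1.18, SE 0.28, adjusted p = 0.00789). It lost its call with library totals alone (0.96), without 2 h replicate 1 (0.90) and without 12 h replicate 1 (1.10). The disulphide isomerase PDIL2-2 (c151179_g1) had 278 and 303 CPM at 2 h and 549 and 503 CPM at 12 h, under the fold limit (log2 FC 0.86, SE 0.17).

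The ubiquitin system tags proteins and the proteasome degrades them, and its parts are described by role. Of 10 proteasome subunits 4 rose and 1 fell, with a median of 1.01, and their summed level went from 272 and 307 CPM at 2 h to 568 and 584 CPM at 12 h. The number that rose was 7 with RLE size factors and 2 with library totals alone, and none fell without 12 h replicate 1. The core subunits PAE1 (c140024_g1; 34.0 and 41.3 CPM at 2 h and 88.8 and 95.9 CPM at 12 h) and PAF1 (c145700_g1; 57.9 and 60.1 CPM at 2 h and 137 and 137 CPM at 12 h) were more abundant in both 12 h libraries. Their log2 fold changes were 1.29 (SE 0.20) for PAE1 and 1.22 (SE 0.18) for PAF1, the last of which was 0.996 and not called with library totals alone. A PCI domain subunit (c149789_g1), of the regulatory lid, had 14.7 and 17.5 CPM at 2 h and 39.97 and 44.6 CPM at 12 h (log2 FC 1.40, SE 0.21, adjusted p = 0.00109). The beta subunit PBC1 (c139086_g1) had 19.3 and 24.3 CPM at 2 h and 51.6 and 49.7 CPM at 12 h (log2 FC 1.22, SE 0.21, adjusted p = 0.00186; 0.99 and not called with library totals alone).

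Of 11 ubiquitin and ubiquitin-like unigenes 6 rose and 3 fell (median 1.001), and 3 rose with library totals alone. Of the 6 that rose, 1 (c153780_g1) is named as a pentatricopeptide repeat protein and is counted in that list too. UBL5 (c130728_g2), a ubiquitin-like protein bound to splicing factors in yeast, had 152 and 141 CPM at 2 h and 458 and 391 CPM at 12 h (log2 FC 1.54, SE 0.18, adjusted p = 0.000282). Of 9 conjugating enzymes 2 rose and 2 fell (median -0.05), and 1 fell when any 1 of the 4 libraries was left out. SCE1 (c134740_g1), which attaches SUMO, had 68.9 and 86.5 CPM at 2 h and 228 and 217 CPM at 12 h (log2 FC 1.52, SE 0.19, adjusted p = 0.000411). UBC2 (c135379_g1), a ubiquitin carrier, had 75.8 and 84.4 CPM at 2 h and 196 and 185 CPM at 12 h (log2 FC 1.25, SE 0.18, adjusted p = 0.000740). PHO2 (c156338_g1), the carrier that curbs phosphate uptake, went the other way with 20.2 and 40.6 CPM at 2 h and 8.40 and 8.12 CPM at 12 h (log2 FC -1.88, SE 0.34, adjusted p = 0.00227). The ubiquitin proteases, which remove the tag, leaned down: 7 of 15 fell and 2 rose, with a median of -0.92. Of the 2 that rose, 1 (c153627_g1) is named not as a protease but as the ARF-GAP domain protein AGD8. The number that fell was 4 without 12 h replicate 1 and 3 without 12 h replicate 2 or in DESeq2, and 1 rose without 12 h replicate 2. UBP15 (c155580_g1), which promotes leaf growth in Arabidopsis, had 10.3 and 14.2 CPM at 2 h and 3.36 and 1.503 CPM at 12 h (log2 FC -2.34, SE 0.41, adjusted p = 0.00196). UBP12 (c140671_g2), a regulator of flowering and clock, had 0.606 and 0.139 CPM at 2 h and 4.87 and 6.91 CPM at 12 h (log2 FC 3.88, SE 0.58, adjusted p = 0.000980). UBP6 (c131077_g1), whose yeast counterpart sits on the proteasome, held 69 counts at 2 h and 3 at 12 h, a ratio of 18.8 (95% exact counting interval 6.16 to 93.3).

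The ligases that choose the targets were divided. The RING and U-box list also holds unigenes with other names, such as a C2 and GRAM domain protein (c133203_g1, called higher) and a copine (c152087_g1, called lower). Of 136 RING and U-box ligases tested, of 153 listed, 49 fell and 34 rose (median -0.36), and 31 and 32 fell without 12 h replicate 1 or 2. Of 124 F-box proteins tested, of 133 listed, 43 rose and 22 fell (median 0.73), and 13 fell without 12 h replicate 1. A RING/U-box unigene (c147524_g1) rose with 20.6 and 19.3 CPM at 2 h and 91.5 and 87.2 CPM at 12 h (log2 FC 2.16, SE 0.19, adjusted p = 8.98e-05). Another (c130104_g1) fell with 14.4 and 14.7 CPM at 2 h and 1.01 and 0.751 CPM at 12 h (log2 FC -4.03, SE 0.38, adjusted p = 0.000106). XERICO (c105084_g1), a RING protein that raises ABA content in Arabidopsis, held 2 counts at 2 h and 88 at 12 h, a ratio of 53.9 (95% exact counting interval 14.5 to 452). VFB3 (c110817_g2), an F-box protein of the VIER family, had 0.171 and 0.551 CPM in the controls. It went from 44.5 and 27.1 CPM at 2 h to 231 and 211 CPM at 12 h (log2 FC 2.62, SE 0.25, adjusted p = 0.000109). SKP1B (c143747_g1), the adaptor that ties F-box proteins to the ligase, had 188 and 156 CPM at 2 h and 368 and 345 CPM at 12 h (log2 FC 1.05, SE 0.18, adjusted p = 0.00166). It lost its call with library totals alone (0.83) and without 2 h replicate 2 (0.95).

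**Figure D3:**
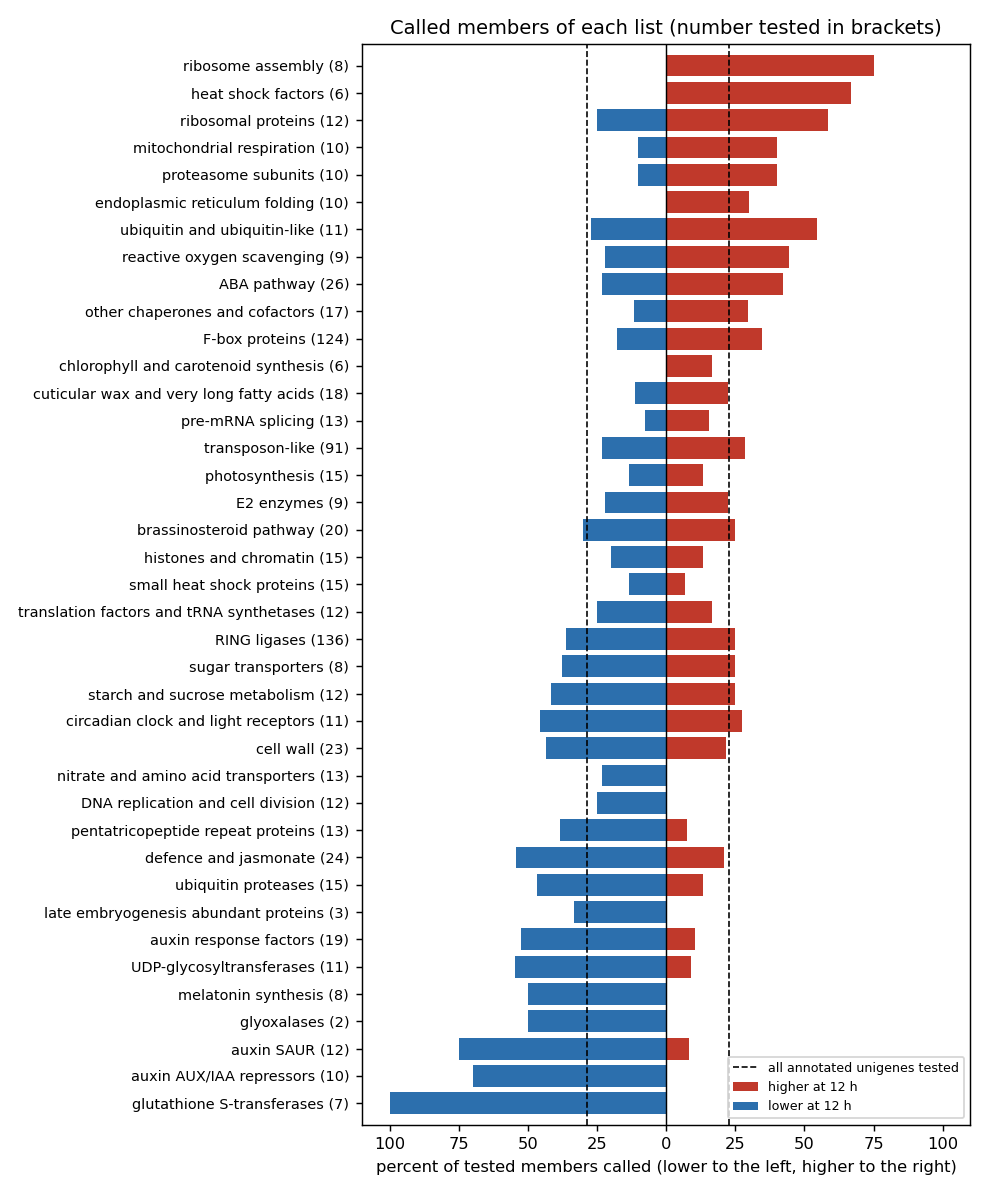
Bars give, for each of the 39 lists, the percent of tested members called higher (red, right) or lower (blue, left) at 12 h than at 2 h, with the number tested in brackets. Dashed lines mark the shares over all annotated unigenes tested, 22.7% higher and 28.5% lower. All 7 glutathione S-transferases tested fell, but 2 fell where 10 counts were required in each of the 4 libraries. Of 8 ribosome assembly unigenes 6 rose, and many lists are short and hold annotated unigenes only, not whole families.

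Ribosome assembly was the list with the largest share of rises among the 39. Of 8 unigenes 6 rose in edgeR, with a median of 1.70. No member fell, in edgeR, with an unadjusted p of 0.05 at the same fold or in DESeq2. Their summed level was 18.1 and 17.6 CPM in control leaves, 23.4 and 25.6 CPM at 2 h and 79.6 and 67.6 CPM at 12 h. A bystin unigene (c148166_g2), needed for the small subunit, had 7.03 and 5.28 CPM at 2 h and 23.5 and 19.2 CPM at 12 h (log2 FC 1.79, SE 0.27, adjusted p = 0.00103). PWP2, part of the complex that processes pre-rRNA, had 2 unigenes that rose, c152122_g1 with 4.48 and 7.79 CPM at 2 h and 20.3 and 18.2 CPM at 12 h (log2 FC 1.66, SE 0.31) and c133319_g1 with 1.45 and 3.20 CPM at 2 h and 9.74 and 8.87 CPM at 12 h (log2 FC 2.01, SE 0.41). NRPA2 (c156315_g1), a large subunit of the RNA polymerase that makes rRNA, had 2.91 and 2.09 CPM at 2 h and 7.72 and 8.12 CPM at 12 h (log2 FC 1.65, SE 0.36, adjusted p = 0.00545). All of these are of low abundance. Their 12 h libraries lay above their 2 h libraries, but this held for all 4191 unigenes that rose and adds nothing to their calls.

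Ribosomal proteins rose in 7 of 12 cases and fell in 3 (median 1.24). PGY2 (c147124_g1), a large-subunit protein with a role in leaf patterning, had 20.2 and 25.3 CPM at 2 h and 71.9 and 67.9 CPM at 12 h (log2 FC 1.62, SE 0.21, adjusted p = 0.000465), below its control level of 68.2 and 44.6 CPM at 2 h. An L1p/L10e family member (c145069_g1) had 62.5 and 67.6 CPM at 2 h and 163 and 171 CPM at 12 h (log2 FC 1.36, SE 0.18, adjusted p = 0.000506). RPL10B (c150447_g1) fell, with 45.4 and 26.3 CPM at 2 h and 7.72 and 9.32 CPM at 12 h (log2 FC -2.07, SE 0.30). Translation factors and tRNA synthetases showed no common direction, with 2 of 12 higher and 3 lower (median -0.43); 1 fell without 12 h replicate 1. A glycyl-tRNA synthetase (c152652_g1) had 22.2 and 32.8 CPM at 2 h and 96.6 and 93.8 CPM at 12 h (log2 FC 1.79, SE 0.23, adjusted p = 0.000448). FUG1 (c151468_g1), the initiation factor of chloroplast ribosomes, had 652 and 684 CPM in the controls. It went from 212 and 272 CPM at 2 h to 126 and 127 CPM at 12 h, under the fold limit (log2 FC -0.94, SE 0.19) but called with library totals alone (-1.16) and without 2 h replicate 1 (-1.09). Of 13 splicing unigenes 2 rose and 1 fell (median 0.61), with 3 lower with library totals alone or without 2 h replicate 2, and 2 without 12 h replicate 1. A unigene of the factor Prp18 (c148048_g1), of the second splicing step, had 32.5 and 38.8 CPM at 2 h and 105 and 102 CPM at 12 h (log2 FC 1.54, SE 0.19, adjusted p = 0.000423). Another Prp18 unigene (c142898_g1), more abundant at both times, was not called. It had 105 and 80.1 CPM at 2 h and 124 and 113 CPM at 12 h (log2 FC 0.36, SE 0.20). The splicing regulator SR30 (c145840_g1) had 29.1 and 39.1 CPM at 2 h and 9.74 and 9.47 CPM at 12 h (log2 FC -1.82, SE 0.24, adjusted p = 0.000584).

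The summed level of the photosynthesis genes lay below the controls at both times and was close at 2 h and 12 h. It was 36022 and 36665 CPM in control leaves, 19133 and 19195 CPM at 2 h and 19966 and 19480 CPM at 12 h, and 2 of 15 rose while 2 fell (median 0.11). With library totals alone 5 fell, and 4 rose without 2 h replicate 2 and 1 without 12 h replicate 1. None rose where 10 counts were required in each of the 4 libraries. Within the list 2 photosystem I subunits at the edge of the complex did fall. PSAO (c133500_g3), a docking site for light-harvesting complex II, had 5491 and 5568 CPM in the controls. It went from 3802 and 3065 CPM at 2 h to 1254 and 1208 CPM at 12 h (log2 FC -1.48, SE 0.17, adjusted p = 0.000282). PSAK (c132391_g1), which holds the antenna of photosystem I, had 4558 and 3522 CPM at 2 h and 1924 and 1856 CPM at 12 h (log2 FC -1.10, SE 0.17, adjusted p = 0.00125). It was under the fold limit without 2 h replicate 1 (-0.88). Both are also mesophyll markers, and the lower sum of those markers at 12 h came from these 2 unigenes: without them the sums at the 2 times overlapped, as given above. The Calvin cycle enzyme PRK (c141729_g1), another of these markers, had 1773 and 2301 CPM at 2 h and 2056 and 2071 CPM at 12 h (log2 FC 0.02, SE 0.17). Both unigenes that rose were near 0 in the controls and at 2 h. A CAB1 unigene (c138665_g1), an antenna protein, had 0.484 and 0 CPM at 2 h and 18.6 and 16.1 CPM at 12 h (log2 FC 5.98, SE 0.57, adjusted p = 0.000118). A minor PSAK unigene (c178872_g1) held 0 counts at 2 h and 46 at 12 h, at least 18.8-fold higher over the group. It passed the filter only through its 12 h libraries, so it could be called in this direction alone. FTSH6 (c144626_g1), a chloroplast protease that in Arabidopsis trims small heat shock protein and antenna proteins, had 2.22 and 1.52 CPM in the controls. It went from 536 and 566 CPM at 2 h to 1278 and 1454 CPM at 12 h (log2 FC 1.31, SE 0.16, adjusted p = 0.000416). FD3 (c136982_g1), a ferredoxin of non-green tissue, fell back, with 0.512 and 0.276 CPM in the controls. It went from 269 and 197 CPM at 2 h to 80.9 and 94.8 CPM at 12 h (log2 FC -1.40, SE 0.21, adjusted p = 0.000907).

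Of 6 pigment synthesis unigenes 1 rose and 0 fell in edgeR, also with an unadjusted p of 0.05 at the same fold and in DESeq2, with a median of 0.10; 2 rose without 2 h replicate 2, and 1 fell with library totals alone. Z-ISO (c147790_g1), a carotene isomerase, had 43.1 and 36.7 CPM at 2 h and 96.9 and 101 CPM at 12 h (log2 FC 1.31, SE 0.19, adjusted p = 0.000840). CHLH, the large subunit of the enzyme that puts magnesium into chlorophyll, had 2 unigenes. The major (c156266_g2) had 3875 and 3806 CPM in the controls. It went from 1121 and 1467 CPM at 2 h to 739.9 and 729.9 CPM at 12 h, not called (log2 FC -0.82, SE 0.18) other than with library totals alone (-1.04). The minor (c156266_g1) had 38.4 and 135 CPM at 2 h and 129 and 114 CPM at 12 h, so that its 2 h libraries straddled both 12 h libraries. It was called only without 2 h replicate 2 (1.69).

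Of 12 starch and sucrose unigenes 3 rose and 5 fell (median -0.14; 3 fell without 12 h replicate 1), and the 4 with the smallest p were trehalose phosphate synthases of class II, relatives of the enzyme that makes the sucrose signal trehalose phosphate. These went both ways: TPS7 c155740_g2 had 57.7 and 65.9 CPM at 2 h and 17.3 and 18.5 CPM at 12 h (log2 FC -1.79, SE 0.20, adjusted p = 0.000286). TPS9 (c151375_g1) had 9.45 and 11.7 CPM at 2 h and 1.68 and 1.05 CPM at 12 h (log2 FC -2.95, SE 0.40, adjusted p = 0.000595). A further TPS7 unigene (c153368_g2) had 38.6 and 37.7 CPM at 2 h and 93.2 and 97.7 CPM at 12 h (log2 FC 1.32, SE 0.18, adjusted p = 0.000681), and so rose where its namesake fell. PPCK1 (c147875_g1), the kinase that activates phosphoenolpyruvate carboxylase, had 7.16 and 7.58 CPM in the controls. It went from 43.4 and 25.2 CPM at 2 h to 218 and 213 CPM at 12 h (log2 FC 2.65, SE 0.26, adjusted p = 0.000125). Sugar transporters were as divided, with 2 of 8 higher and 3 lower (median 0.08). An STP1 unigene (c150481_g1), a hexose importer of the plasma membrane, had 18.0 and 31.6 CPM at 2 h and 131 and 113 CPM at 12 h (log2 FC 2.30, SE 0.27, adjusted p = 0.000303). Another STP1 unigene (c147386_g1) had 27.1 and 46.3 CPM at 2 h and 8.06 and 8.42 CPM at 12 h (log2 FC -2.15, SE 0.30, adjusted p = 0.000659). SWEET1 (c137595_g2), a glucose channel, had 10.9 and 13.1 CPM at 2 h and 3.19 and 4.21 CPM at 12 h (log2 FC -1.68, SE 0.32, adjusted p = 0.00288).

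Of 13 nitrate and amino acid transporters 3 fell (median -0.63). None rose in edgeR or DESeq2, while with an unadjusted p of 0.05, or with RLE size factors, 1 did, and 2 did without 2 h replicate 2. The number that fell was 5 without 2 h replicate 2 and 1 without 12 h replicate 2. PROT1 (c131807_g1), a proline transporter, was far above the controls at 2 h and lower again at 12 h: it had 1.19 and 1.24 CPM in the controls. It went from 339 and 197 CPM at 2 h to 49.5 and 47.5 CPM at 12 h (log2 FC -2.46, SE 0.26, adjusted p = 0.000191). NRT1.1 (c136745_g1), the nitrate sensor and carrier, had 8.36 and 6.68 CPM at 2 h and 2.69 and 2.25 CPM at 12 h (log2 FC -1.61, SE 0.36, adjusted p = 0.00677). It was not called without 12 h replicate 2. A more abundant NRT1.1 unigene (c136745_g7) was not called, with 18.4 and 22.1 CPM at 2 h and 13.1 and 13.1 CPM at 12 h (log2 FC -0.63, SE 0.23). Respiratory chain unigenes rose in 4 of 10 cases and fell in 1 (median 0.62; 2 fell without 2 h replicate 2). CYTC-1 (c134256_g2), cytochrome c, had 94.8 and 90.8 CPM at 2 h and 235 and 218 CPM at 12 h (log2 FC 1.29, SE 0.17, adjusted p = 0.000592). CYTC-2 (c134256_g1) had 37.9 and 32.5 CPM at 2 h and 35.9 and 35.6 CPM at 12 h (log2 FC 0.02, SE 0.20). ATP8 (c135638_g3), a mitochondrial ATPase subunit, had 0.171 and 0 CPM in the controls. It went from 5.57 and 3.20 CPM at 2 h to 16.8 and 16.8 CPM at 12 h (log2 FC 1.92, SE 0.32, adjusted p = 0.00149). A cytochrome c oxidase unigene (c125820_g1) fell, with 0.341 and 0.689 CPM in the controls. It went from 145 and 116 CPM at 2 h to 30.7 and 35.5 CPM at 12 h (log2 FC -1.98, SE 0.21, adjusted p = 0.000175).

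The glutathione S-transferases tested, which join glutathione to toxic compounds, fell. All 7, of 10 listed, were lower at 12 h in edgeR against a background of 28.5% lower, with a median of -1.94. No member rose, in edgeR, with an unadjusted p of 0.05 at the same fold or in DESeq2. Requiring 10 counts in each of the 4 libraries left 2 that fell, and fewer also fell without 12 h replicate 2. Their summed level was 340.3 and 336 CPM in control leaves, 181 and 131 CPM at 2 h and 70.5 and 58.5 CPM at 12 h. The most abundant, GSTU18 (c135565_g1), had 124 and 84.1 CPM at 2 h and 53.4 and 46.0 CPM at 12 h (log2 FC -1.07, SE 0.23, adjusted p = 0.00494). It was under the fold limit without 2 h replicate 1 (-0.74) or 12 h replicate 2 (-0.90). GSTU17 (c130722_g1), which tempers drought and light responses in Arabidopsis, had 22.2 and 25.9 CPM in the controls. It went from 6.30 and 6.95 CPM at 2 h to 0.336 and 1.05 CPM at 12 h (log2 FC -3.19, SE 0.51, adjusted p = 0.00128). A further GSTU17 unigene (c141181_g1) held 62 counts at 2 h and 3 at 12 h, a ratio of 16.9 (95% exact counting interval 5.51 to 84.0). Of the 2 glyoxalases, which remove methylglyoxal with glutathione, 1 fell and 0 rose in edgeR, also with an unadjusted p of 0.05 at the same fold and in DESeq2, and 2 fell without 2 h replicate 1. Their summed level went from 66.5 and 62.2 CPM at 2 h to 3.69 and 3.16 CPM at 12 h, nearly all of it in c146959_g1 (log2 FC -5.64, SE 0.29, adjusted p = 9.39e-06). UDP-glycosyltransferases, which put sugars on hormones and metabolites, fell in 6 of 11 cases and rose in 1 (median -1.11), but this count was fragile: 2 fell without 2 h replicate 1, 1 without 12 h replicate 1, and 2 without 12 h replicate 2 or in DESeq2, and 2 rose without 2 h replicate 1 and none without 12 h replicate 1. UGT71B5 (c139464_g1) had 22.0 and 18.2 CPM at 2 h and 7.56 and 9.02 CPM at 12 h (log2 FC -1.28, SE 0.26, adjusted p = 0.00374; p over the limit without 12 h replicate 1).

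Of 9 unigenes that scavenge reactive oxygen 4 rose and 2 fell (median 0.87), and 1 fell without 2 h replicate 1 and 0 without 12 h replicate 1. APX1 (c118694_g2), the cytosolic ascorbate peroxidase, had 8.96 and 18.8 CPM at 2 h and 46.5 and 44.8 CPM at 12 h (log2 FC 1.73, SE 0.31, adjusted p = 0.00225). CSD1 (c147035_g2), the cytosolic superoxide dismutase, had 18.2 and 40.2 CPM at 2 h and 95.6 and 80.9 CPM at 12 h (log2 FC 1.60, SE 0.32, adjusted p = 0.00381). In both, the 2 h replicates differed by about as much as a call requires, and lay below both 12 h libraries, as in every unigene that rose. Sulfiredoxin (c128465_g1), which restores peroxiredoxins, had 33.8 and 26.0 CPM at 2 h and 55.9 and 53.8 CPM at 12 h, under the fold limit (log2 FC 0.87, SE 0.21) but called without 2 h replicate 1 (1.09).

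**Figure D4:**
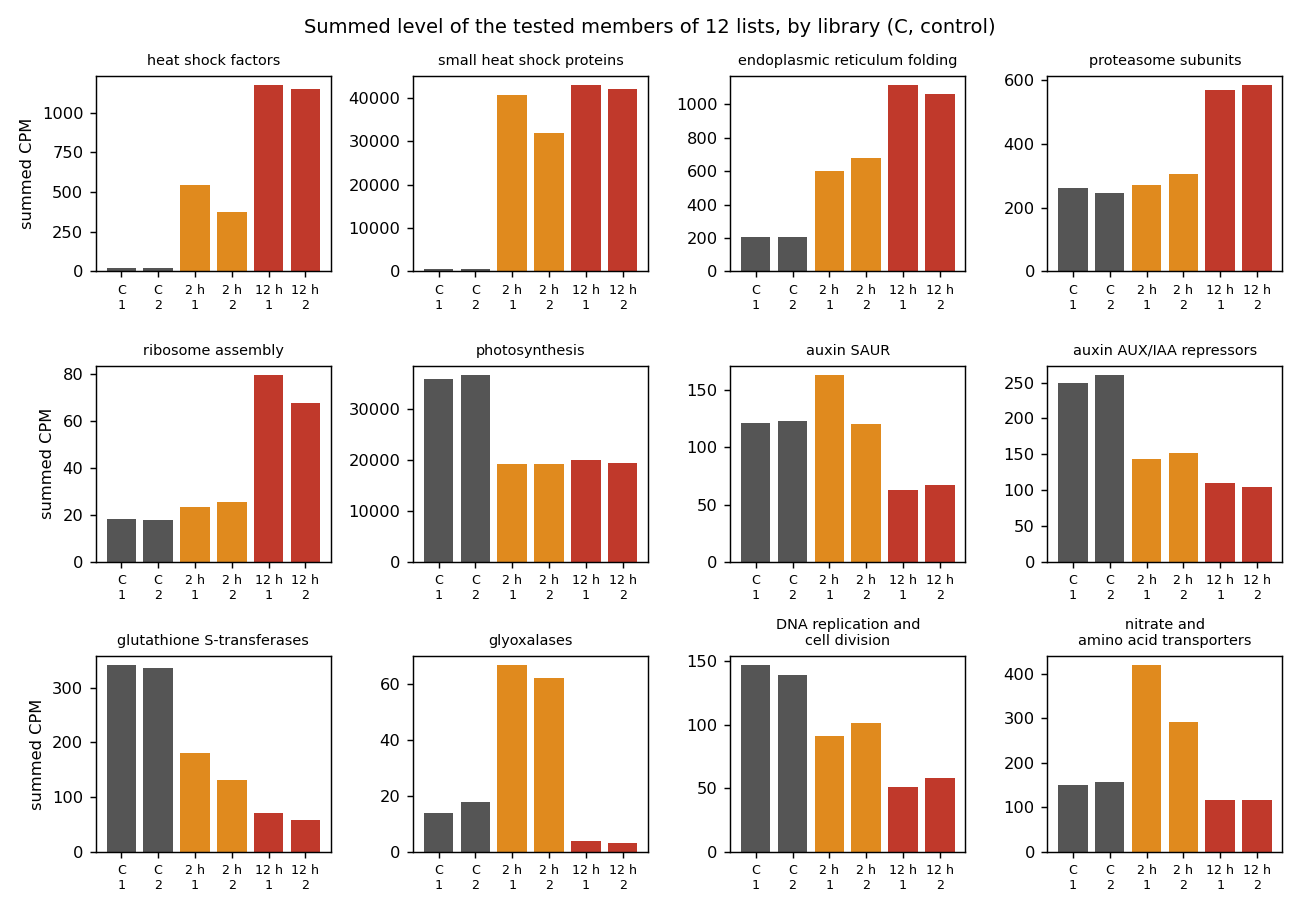
Bars give the summed level (CPM) of the tested members of 12 lists in each of the 6 libraries: controls in grey, 2 h in orange, 12 h in red, each axis from 0. Heat shock factors reached 1174 and 1151 CPM at 12 h, while the glyoxalases went from 66.5 and 62.2 CPM at 2 h to 3.69 and 3.16 CPM at 12 h and the small heat shock proteins lay between 31817 and 42904 CPM in the heat libraries.

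Of 18 unigenes for wax and very long fatty acids 4 rose and 2 fell (median -0.11), with 4 lower with library totals alone and 1 without 12 h replicate 2 or with RLE size factors. CER1 (c156569_g1), which makes the alkanes of wax, had 23.5 and 15.3 CPM in the controls. It went from 368 and 357 CPM at 2 h to 963 and 947 CPM at 12 h (log2 FC 1.40, SE 0.16, adjusted p = 0.000281). The exporter ABCG11 (c153042_g1) and the elongase KCS5 (c143827_g2) stood higher in the controls than at 2 h, with 106 and 111 CPM for ABCG11 and 105 and 101 CPM for KCS5. ABCG11 had 16.2 and 41.6 CPM at 2 h and 98.2 and 92.0 CPM at 12 h (log2 FC 1.72, SE 0.35, adjusted p = 0.00426). KCS5 had 10.2 and 26.1 CPM at 2 h and 66.7 and 55.0 CPM at 12 h (log2 FC 1.75, SE 0.36, adjusted p = 0.00439). FATB (c150479_g1), which releases saturated fatty acids from the plastid, fell with 136 and 127 CPM at 2 h and 49.0 and 48.7 CPM at 12 h (log2 FC -1.43, SE 0.18, adjusted p = 0.000436). CER1 and ABCG11 unigenes are also the epidermal markers, and the 2 named here hold most of their sum. The other 3 markers summed to 71.2 and 81.4 CPM at 2 h and 118 and 103 CPM at 12 h, none of them called, and the part of the epidermis in this result was not tested.

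Cell wall unigenes fell in 10 of 23 cases and rose in 5 (median -0.76), with 4 lower without 12 h replicate 2 or in DESeq2. Their summed level went from 340.2 and 366 CPM at 2 h to 855 and 733 CPM at 12 h, most of it in CTL1 and IRX10. CTL1 (c150950_g1), a chitinase-like protein that organises cellulose and whose Arabidopsis mutant hot2 is heat sensitive, had 104 and 104 CPM at 2 h and 456 and 383 CPM at 12 h (log2 FC 2.01, SE 0.18, adjusted p = 8.50e-05). IRX10 (c152297_g2), a xylan synthase that is also the abundant xylem marker, had 82.7 and 90.5 CPM at 2 h and 267 and 227 CPM at 12 h (log2 FC 1.51, SE 0.18, adjusted p = 0.000352). The other 6 xylem markers summed to 27.4 and 35.9 CPM at 2 h and 24.9 and 22.4 CPM at 12 h, with 3 of them lower. Among those lower were further IRX10 unigenes, c137662_g1 (log2 FC -1.26, SE 0.35) and c145870_g1 (log2 FC -1.52, SE 0.45). Another IRX10 unigene (c152297_g1) was not called (log2 FC 1.35, SE 0.62), so IRX10 unigenes went both ways. IRX9-L (c152189_g1), of the same pathway, fell with 17.4 and 23.8 CPM at 2 h and 7.05 and 7.21 CPM at 12 h (log2 FC -1.53, SE 0.27, adjusted p = 0.00206). GATL3 (c141295_g1), a sugar transferase, had 10.3 and 8.62 CPM at 2 h and 19.98 and 23.7 CPM at 12 h (log2 FC 1.21, SE 0.25, adjusted p = 0.00409; 0.98 and not called with library totals alone). No unigene of DNA replication and division rose in edgeR, also with an unadjusted p of 0.05 at the same fold and in DESeq2. Of 12 tested 3 fell (median -0.89), 7 with library totals alone and 5 without 2 h replicate 1, where 2 also rose. MCM2 (c147077_g1), of the replication helicase and a marker of dividing cells, had 4.12 and 3.75 CPM at 2 h and 0.336 and 0.451 CPM at 12 h (log2 FC -3.26, SE 0.54, adjusted p = 0.00151). The other MCM2 unigenes among these markers (c135707_g1, c150589_g4 and c133859_g1) were not called, with log2 fold changes of -0.97, -0.86 and -1.47. MAP65-7 (c153684_g1), a microtubule bundler, had 12.2 and 18.6 CPM at 2 h and 3.02 and 4.66 CPM at 12 h (log2 FC -1.99, SE 0.35, adjusted p = 0.00197). Another MAP65-7 unigene (c155015_g1) was under the fold limit, with 15.7 and 22.3 CPM at 2 h and 10.7 and 10.5 CPM at 12 h (log2 FC -0.83, SE 0.26). SP1L1 (c140802_g1), which sits at the ends of microtubules and directs cell expansion, had 237 and 226 CPM at 2 h and 632 and 561 CPM at 12 h (log2 FC 1.36, SE 0.17, adjusted p = 0.000389).

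Clock and light genes changed in both directions, and for these above all hours of heat and time of day cannot be told apart: 3 of 11 rose and 5 fell (median -0.59; 2 fell without 12 h replicate 2). GI (c153713_g1), an evening gene of the clock, had 67.0 and 85.7 CPM in the controls. It went from 37.8 and 53.3 CPM at 2 h to 194 and 209 CPM at 12 h (log2 FC 2.15, SE 0.21, adjusted p = 0.000143). FKF1 (c150815_g1), the F-box blue light receptor that pairs with GI and is counted with the F-box proteins, had 2.22 and 4.27 CPM in the controls. It went from 6.30 and 6.40 CPM at 2 h to 51.4 and 55.2 CPM at 12 h (log2 FC 3.07, SE 0.22, adjusted p = 3.43e-05). A B-box factor with a CCT domain (c145907_g1), of the CONSTANS kind, had 23.7 and 19.6 CPM at 2 h and 84.6 and 75.7 CPM at 12 h (log2 FC 1.88, SE 0.21, adjusted p = 0.000217). PIF3 (c155477_g1), the phytochrome partner that promotes growth in the dark, had 84.8 and 77.6 CPM at 2 h and 24.4 and 22.8 CPM at 12 h (log2 FC -1.78, SE 0.19, adjusted p = 0.000222). CRY2 (c155297_g1), a blue light receptor, had 39.1 and 38.8 CPM in the controls. It went from 119 and 119 CPM at 2 h to 56.9 and 45.1 CPM at 12 h (log2 FC -1.22, SE 0.19, adjusted p = 0.00127; not called without 12 h replicate 2, at the fold limit).

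The abscisic acid (ABA) pathway changed in both directions. In Arabidopsis ABA binds PYL receptors, which then hold back PP2C phosphatases and free SnRK2 kinases to activate ABF factors. Of 26 unigenes 11 rose and 6 fell (median 0.55), and 3 fell when 2 h replicate 1, 2 h replicate 2 or 12 h replicate 1 was left out, or in DESeq2. The receptor PYL5 (c141504_g1) stood near its control level at 2 h and was low at 12 h, with 134 and 129 CPM in the controls. It went from 150.2 and 132 CPM at 2 h to 14.4 and 13.4 CPM at 12 h (log2 FC -3.34, SE 0.21, adjusted p = 1.59e-05). The phosphatase HAI3, an ABA-induced PP2C, rose in each of its 3 tested unigenes. The most abundant (c151730_g1) had 1.54 and 1.65 CPM in the controls. It went from 7.99 and 4.59 CPM at 2 h to 65.0 and 65.2 CPM at 12 h (log2 FC 3.36, SE 0.27, adjusted p = 6.22e-05). Another HAI3 unigene (c131716_g1) held 3 counts at 2 h and 144 at 12 h, a ratio of 58.8 (95% exact counting interval 19.7 to 288). CYP707A1 (c153742_g1), which breaks ABA down, had 46.1 and 72.3 CPM in the controls. It went from 27.4 and 31.4 CPM at 2 h to 126 and 114 CPM at 12 h (log2 FC 2.03, SE 0.19, adjusted p = 0.000118), so that it lay under its control level at 2 h and above it at 12 h.

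Of the auxin response genes tested, more fell than rose. AUX/IAA proteins repress the auxin response factors (ARFs), and SAUR genes are early targets that drive cell expansion. Of 12 SAUR unigenes tested, of 18 listed, 9 fell and 1 rose (median -2.03), from a sum of 163 and 120.3 CPM at 2 h to 62.3 and 66.7 CPM at 12 h. Requiring 10 counts in each of the 4 libraries left 3 that fell and 0 that rose. Leaving out 2 h replicate 1 gave 2 that rose, and leaving out 12 h replicate 2 gave none. Of the SAUR unigenes that fell, 2 had no count at 12 h: c140286_g1 held 45 counts at 2 h and 0 at 12 h, at least 12.2-fold lower over the group, and c139599_g2 held 43 and 0, at least 11.7-fold lower. Both passed the filter only through their 2 h libraries, so they could be called in this direction alone. A more abundant SAUR unigene (c136893_g1) had 17.4 and 15.4 CPM at 2 h and 5.04 and 5.86 CPM at 12 h (log2 FC -1.59, SE 0.27, adjusted p = 0.00181). Of 10 AUX/IAA unigenes 7 fell in edgeR, with a median of -1.77. No AUX/IAA unigene rose, in edgeR, with an unadjusted p of 0.05 at the same fold or in DESeq2. Requiring 10 counts in each of the 4 libraries left 3 that fell. The number that fell was 3 and 4 without 2 h replicate 1 or 2, 3 and 2 without 12 h replicate 1 or 2, and 2 in DESeq2. IAA26 was called under every alternative run in 2 unigenes, c144562_g1 with 22.8 and 26.8 CPM at 2 h and 3.19 and 2.55 CPM at 12 h (log2 FC -3.11, SE 0.29, adjusted p = 0.000101) and c152021_g1 with 34.0 and 41.4 CPM at 2 h and 8.90 and 9.02 CPM at 12 h (log2 FC -2.07, SE 0.23, adjusted p = 0.000249).

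Among 19 auxin response factors tested, of 24 listed, 10 fell and 2 rose (median -1.51; 1 rose without 12 h replicate 2). With 10 counts required in each of the 4 libraries, 6 fell and 1 rose. ETT/ARF3 (c146582_g3), which shapes leaf polarity, had 9.45 and 9.60 CPM at 2 h and 1.34 and 1.20 CPM at 12 h (log2 FC -2.89, SE 0.38, adjusted p = 0.000539). ARF2 (c148334_g1), a repressor of growth, had 13.3 and 12.7 CPM at 2 h and 3.86 and 3.16 CPM at 12 h (log2 FC -1.89, SE 0.31, adjusted p = 0.00139). ARF6 (c150322_g1), an activator of elongation, had 11.1 and 5.84 CPM at 2 h and 1.18 and 1.05 CPM at 12 h (log2 FC -2.92, SE 0.48, adjusted p = 0.00146). ARF1 (c153976_g1) went the other way and holds most of the list's sum: it had 523 and 551 CPM in the controls. It went from 398 and 390.0 CPM at 2 h to 1633 and 1459 CPM at 12 h (log2 FC 1.97, SE 0.16, adjusted p = 6.34e-05). The sum went from 595 and 617 CPM to 1747 and 1579.8 CPM. The brassinosteroid list was mixed, with 5 of 20 higher and 6 lower (median -0.72). With 10 counts required in each of the 4 libraries, 2 rose. BRI1 (c154523_g1), the receptor, had 18.8 and 18.5 CPM at 2 h and 5.54 and 7.06 CPM at 12 h (log2 FC -1.56, SE 0.26, adjusted p = 0.00170). BSL2 (c155518_g2), a phosphatase that passes its signal on, had 4.48 and 5.84 CPM at 2 h and 23.2 and 17.0 CPM at 12 h (log2 FC 1.96, SE 0.29, adjusted p = 0.000939). IBH1 (c147330_g1), a brake on elongation, fell with 20.8 and 13.8 CPM at 2 h and 5.04 and 4.66 CPM at 12 h (log2 FC -1.84, SE 0.31, adjusted p = 0.00164). CYP90D1 (c125013_g1), an enzyme of synthesis, held 0 counts at 2 h and 42 at 12 h, at least 17.1-fold higher over the group. It passed the filter only through its 12 h libraries, so it could be called in this direction alone.

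Of 8 unigenes for melatonin synthesis 4 fell in edgeR, with a median of -1.24. No member rose, in edgeR, with an unadjusted p of 0.05 at the same fold or in DESeq2. All 4 that fell were matched to ASMT, which methylates N-acetylserotonin in the last step. The ASMT unigene c140743_g1 had 107 and 101 CPM in the controls. It went from 23.5 and 37.8 CPM at 2 h to 12.3 and 8.72 CPM at 12 h (log2 FC -1.55, SE 0.30, adjusted p = 0.00304). A further ASMT unigene (c127398_g1) had 82.9 and 76.0 CPM in the controls. It went from 9.81 and 12.8 CPM at 2 h to 2.18 and 4.06 CPM at 12 h (log2 FC -1.84, SE 0.37, adjusted p = 0.00395). Both of these unigenes lay below their controls at both times. The most abundant ASMT unigene (c140743_g2) was not called, with 74.5 and 181 CPM at 2 h and 151 and 124 CPM at 12 h, nor was SNAT (c150945_g1), which makes N-acetylserotonin, with 49.9 and 47.0 CPM at 2 h and 60.1 and 55.2 CPM at 12 h.

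**Figure D5:**
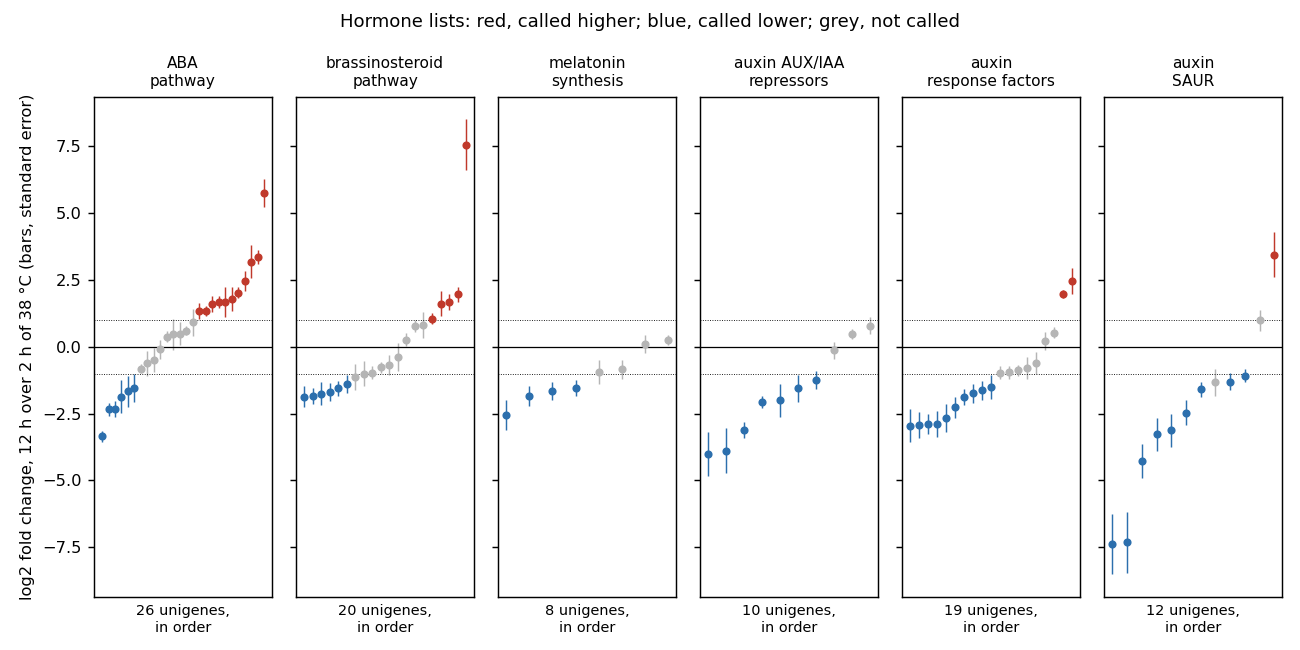
Points are the log2 fold changes of 12 h over 2 h of heat for the tested unigenes of 6 hormone lists, ordered by value, with bars of 1 standard error and dotted lines at the 2-fold limits. Of the 12 SAUR unigenes 9 were called lower (blue), of the 26 ABA unigenes 11 higher (red) and 6 lower, and the outermost points at -7.38, -7.31 and 7.55 have 0 counts at 1 time, so their fitted size is no bound.

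Defence and jasmonate unigenes fell in 13 of 24 cases and rose in 5 (median -1.09); 8 fell without 12 h replicate 2, and 3 rose when 12 h replicate 1 or 12 h replicate 2 was left out. JAZ1 (c153607_g3), the repressor that jasmonate removes, was highest at 2 h, with 12.1 and 9.78 CPM in the controls. It went from 56.8 and 54.5 CPM at 2 h to 8.23 and 11.3 CPM at 12 h (log2 FC -2.51, SE 0.23, adjusted p = 0.000103). FMO1 (c152301_g1), which makes the signal of systemic resistance, had 58.0 and 71.5 CPM in the controls. It went from 17.1 and 24.2 CPM at 2 h to 4.03 and 5.26 CPM at 12 h (log2 FC -2.14, SE 0.30, adjusted p = 0.000740). WAK3 (c146350_g1), a kinase that senses pectin fragments, had 11.4 and 13.9 CPM at 2 h and 2.02 and 2.86 CPM at 12 h (log2 FC -2.36, SE 0.34, adjusted p = 0.000850). ERF11 (c153435_g3), a repressor among the ethylene response factors, rose with 19.5 and 16.7 CPM at 2 h and 54.1 and 54.0 CPM at 12 h (log2 FC 1.58, SE 0.20, adjusted p = 0.000501). Of 3 late embryogenesis abundant proteins, which protect drying cells, 1 fell and 0 rose in edgeR, also with an unadjusted p of 0.05 at the same fold and in DESeq2. The one that fell (c138878_g1) had 59.4 and 57.4 CPM in the controls. It went from 64.2 and 53.7 CPM at 2 h to 10.9 and 11.1 CPM at 12 h (log2 FC -2.42, SE 0.22, adjusted p = 9.09e-05).

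Pentatricopeptide repeat proteins, which process RNA in organelles, fell in 5 of 13 cases and rose in 1 (median -0.62). The number that fell was 2 without 2 h replicate 2 and 3 without 12 h replicate 1, and 2 rose when replicate 2 of either time was left out. CRR22 (c155789_g1), an editing factor of chloroplast RNA, had 16.1 and 19.5 CPM at 2 h and 5.21 and 4.66 CPM at 12 h (log2 FC -1.85, SE 0.28, adjusted p = 0.000975). Unigenes with a transposon-like best match were split, with 26 of 91 higher and 21 lower (median 0.30), and their sum was 217 and 228 CPM in control leaves, 2415 and 1687 CPM at 2 h and 1902 and 1905 CPM at 12 h. Among them a ribonuclease H-like unigene (c154187_g1) had 0 and 0.413 CPM in the controls. It went from 18.2 and 16.0 CPM at 2 h to 78.6 and 80.6 CPM at 12 h (log2 FC 2.22, SE 0.20, adjusted p = 9.09e-05). A DNAse I-like unigene (c155976_g1) had 30.9 and 33.0 CPM at 2 h and 2.85 and 2.55 CPM at 12 h (log2 FC -3.55, SE 0.27, adjusted p = 4.32e-05). Another (c142862_g1) held 188 counts at 2 h and 1 at 12 h, a ratio of 154 (95% exact counting interval 27.2 to 6093). Chromatin unigenes rose in 2 of 15 cases and fell in 3 (median -0.20), with 1 to 6 higher as single libraries were left out: 4 without 2 h replicate 1, 6 without 2 h replicate 2, 4 without 12 h replicate 1 and 1 without 12 h replicate 2. MOM1 (c155577_g1), which keeps transposons silent in Arabidopsis, had 13.3 and 10.1 CPM in the controls. It went from 81.8 and 94.0 CPM at 2 h to 34.9 and 37.6 CPM at 12 h (log2 FC -1.28, SE 0.19, adjusted p = 0.000976). AGO2 (c141086_g1), a carrier of small RNAs, had 3.997 and 3.34 CPM at 2 h and 0.168 and 0.451 CPM at 12 h (log2 FC -3.47, SE 0.59, adjusted p = 0.00180).

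The largest changes among annotated unigenes of at least 10 CPM lay partly outside the lists. A protein phosphatase (c156836_g1) had 5.12 and 4.13 CPM in the controls. It went from 8.12 and 6.54 CPM at 2 h to 107 and 106 CPM at 12 h. A second phosphatase unigene (c156801_g1) had 3.51 and 1.81 CPM at 2 h and 21.8 and 18.0 CPM at 12 h. Their log2 fold changes were 3.85 (SE 0.22) and 2.88 (SE 0.34). A DUF579 unigene (c144717_g1), of a family with xylan methyltransferases, had 5.09 and 3.20 CPM at 2 h and 43.7 and 38.3 CPM at 12 h (log2 FC 3.29, SE 0.28, adjusted p = 6.63e-05). NPC1 (c154162_g2), a phospholipase C that takes part in heat tolerance in Arabidopsis, lay below the controls at 2 h and above them at 12 h, with 33.6 and 32.9 CPM in the controls. It went from 10.1 and 14.2 CPM at 2 h to 88.0 and 77.8 CPM at 12 h (log2 FC 2.78, SE 0.23, adjusted p = 6.65e-05). A glycine-rich protein (c146623_g1) had 13.3 and 18.4 CPM at 2 h and 97.2 and 102 CPM at 12 h (log2 FC 2.66, SE 0.22, adjusted p = 6.50e-05). Among the falls, ACHT4 (c139548_g1), a chloroplast thioredoxin that acts on starch synthesis, had 22.9 and 23.5 CPM at 2 h and 0.504 and 0.902 CPM at 12 h (log2 FC -4.99, SE 0.37, adjusted p = 3.50e-05). A homeodomain-like factor (c147356_g1) had 49.1 and 50.0 CPM in the controls. It went from 30.5 and 28.6 CPM at 2 h to 3.36 and 3.46 CPM at 12 h (log2 FC -3.11, SE 0.26, adjusted p = 6.58e-05). The U-box ligase PUB45 (c155729_g1) had 17.8 and 18.4 CPM at 2 h and 3.02 and 2.71 CPM at 12 h (log2 FC -2.65, SE 0.29, adjusted p = 0.000231). An unnamed protein (c133482_g1) lay above the controls at 2 h and below them at 12 h, with 19.96 and 27.1 CPM in the controls. It went from 72.1 and 72.6 CPM at 2 h to 2.69 and 3.16 CPM at 12 h (log2 FC -4.62, SE 0.25, adjusted p = 1.16e-05).

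Abundant unigenes that rose included APA1 (c153789_g2), a vacuolar aspartic protease, with 234 and 295 CPM at 2 h and 799 and 744 CPM at 12 h (log2 FC 1.54, SE 0.18, adjusted p = 0.000316). A copper amine oxidase (c136537_g1), which breaks down polyamines, had 526 and 467 CPM in the controls. It went from 158 and 223 CPM at 2 h to 402 and 376 CPM at 12 h (log2 FC 1.03, SE 0.20, adjusted p = 0.00330). It lost its call with library totals alone (0.80) and without 2 h replicate 1 (0.82). Among those that fell was AVP1 (c153971_g1), the proton pump of the vacuole that runs on pyrophosphate, which lay below the controls at 2 h and lower still at 12 h, with 1267 and 1289 CPM in the controls. It went from 350.0 and 528 CPM at 2 h to 128 and 116 CPM at 12 h (log2 FC -1.85, SE 0.22, adjusted p = 0.000340). ACX3 (c146857_g1), an oxidase of fatty acid breakdown in peroxisomes, had 49.5 and 50.1 CPM in the controls. It went from 269 and 219.9 CPM at 2 h to 122 and 119.8 CPM at 12 h (log2 FC -1.02, SE 0.18, adjusted p = 0.00214). It stood at the fold limit and was called in no fit that left out 1 library other than 2 h replicate 2. Of the other unigenes with primers, CRK8 (c145343_g1), a receptor kinase match counted with the transposon-like matches, had 10.2 and 3.75 CPM at 2 h and 24.9 and 37.4 CPM at 12 h (log2 FC 2.14, SE 0.40, adjusted p = 0.00263). The calmodulin-like CML38 (c38780_g1) held 1 count at 2 h and 28 at 12 h, a ratio of 34.3 (95% exact counting interval 5.67 to 1403). The gibberellin-inactivating GA2OX8 (c145230_g1) had 37.2 and 21.0 CPM at 2 h and 32.9 and 32.0 CPM at 12 h (log2 FC 0.15, SE 0.27, adjusted p = 0.670). The NAC factor ATAF1 (c150305_g1) had 54.5 and 22.0 CPM at 2 h and 43.5 and 37.9 CPM at 12 h (log2 FC 0.08, SE 0.35, adjusted p = 0.863). Neither passed the test, and in both the 2 h libraries lay on either side of the 12 h libraries.

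The largest rises among unigenes with no annotation used here were 2 of the unigenes without a count at 2 h: c183380_g1 and c152676_g1 held 0 counts in the controls and at 2 h, and 839 and 644 counts at 12 h, at least 343-fold and 263-fold higher over the group. Their 12 h libraries lay close together, with 67.3 and 65.8 CPM for c183380_g1 and 50.7 and 51.4 CPM for c152676_g1. In the other direction c117258_g1 held 38.6 and 101 CPM at 2 h and 0 counts at 12 h, at least 285-fold lower, and c92856_g1 held 29.4 and 89.8 CPM and 0 counts, at least 242-fold lower. Both had been present in the controls (45.7 and 39.7 CPM and 31.6 and 32.2 CPM), and both were higher in 2 h replicate 2 than in 2 h replicate 1. Each unigene of this paragraph passed the filter only through the heat time that held counts, so it could be called in 1 direction alone.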

How the data were processed

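Leaf RNA of tall fescue seedlings was sequenced in 6 libraries, and the 4 heat libraries were compared. Per the study's methods, the authors assembled clean paired-end reads with Trinity and estimated levels with RSEM, whereas their processing notes name TopHat2 2.0.12, Bowtie2 2.2.3, HTSeq 0.6.1 and DESeq 1.18.0. The deposited values are expected counts per unigene, of which 0.157% were not whole, and they were rounded. Strand setting and unigene lengths are not given in the sources used here, so levels of different unigenes are not compared per length, and reads from overlapping or near-identical transcripts may be shared.

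Unigenes passing edgeR's filterByExpr (minimum count 10) were fitted with edgeR 4.0.16 quasi-likelihood on TMM-scaled counts of the 2 h and 12 h libraries (R 4.3.3, limma 3.58.1), with 2 residual degrees of freedom and a common dispersion of 0.0360. A call needed a fold of 2 and a Benjamini-Hochberg adjusted p of 0.05 over all 25983 unigenes. Standard errors were derived from the F statistic. Where 1 time held no count, the fold is a lower bound at 3 counts over that time's libraries, and exact 95% intervals cover counting error only. Controls were put on the same scale as reference levels and entered only the alternative fit of all 6 libraries.

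Members and lists were chosen with earlier results of these data known. Named unigenes are the 4 smallest adjusted p in each list, the largest and the most abundant annotated changes, those with primers, and the 2 largest unannotated changes each way; only part of them is printed. HSP21, HSC70-1, SNAT, PRK, the major HSFA1D unigene, the minor HSP18.2 unigene and the most abundant ASMT unigene were added after their values were seen. The alternatives tried were 2 other scalings (RLE and library totals), 2 other filters, DESeq2 1.42.0, a fit of all 6 libraries, a replicate block, other thresholds and leaving out each library. The study's own fold changes and p-values were not used.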

Additional observations from a re-analysis of the deposited data

How the results depend on the processing

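No call reversed its direction under any alternative run. Requiring 10 counts in each of the 4 libraries left 4683 calls, 1974 higher and 2709 lower, with 17501 unigenes tested, and DESeq2 called 3612 higher and 3029 lower, a majority of rises where the values reported have a majority of falls. Leaving out 1 library gave 6366 to 10787 calls, 3319 to 5391 higher and 3047 to 5396 lower, and in these fits the lone library is assumed to vary like those of the other time. With the replicate number as a block 9425 unigenes were called, 4328 higher and 5097 lower. Same-numbered libraries did not deviate together (correlation -0.029 over 9068 unigenes). With 1 replicate difference at each time, this cannot tell whether the libraries were taken as pairs. Of 192 named unigenes, 28 lost and 17 gained a call under at least 1 alternative. A named unigene that an alternative did not test is not counted as lost there, which was most frequent where 10 counts were required in each library. Of 78 list counts, 46 fell and 21 rose by more than 1.5 times under at least 1. At these depths 3 counts in 1 heat library are worth 0.363 to 0.504 CPM, which is the limit that a count of 0 allows. With 2 libraries a time, list counts that turn on 1 library are named beside each list.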

Other observations

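Unigenes that share a best match did not always change together. Of 1310 best matches with a tested unigene, 234 had 2 or more tested unigenes and 94 had 2 or more called. In 31 of these 94 the calls went in both directions. TPS7 and STP1, described above, are examples.

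Most unigenes that changed between 2 and 12 h were still near the control at 2 h, where near means within 2-fold of the control mean. Of those that rose, 2494 (59.5%) were near the control at 2 h and away from it at 12 h, 362 (8.64%) were away at 2 h and near at 12 h, and 704 (16.8%) were away on the same side at both times. Of those that fell, 3038 (58.4%) were near the control at 2 h and away at 12 h, 640 (12.3%) were away at 2 h and near at 12 h, and 69 (1.33%) lay on opposite sides. These shares are a description, with no test of the controls.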
